A study of Mus musculus with 12 samples.

Results

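The 9 genes described here encode proteins that copy, write, read and remove cytosine methylation in DNA: the DNA methyltransferases *Dnmt1* (ENSMUSG00000004099), *Dnmt3a* (ENSMUSG00000020661) and *Dnmt3b* (ENSMUSG00000027478), the UHRF proteins *Uhrf1* (ENSMUSG00000001228) and *Uhrf2* (ENSMUSG00000024817), the TET dioxygenases *Tet1* (ENSMUSG00000047146), *Tet2* (ENSMUSG00000040943) and *Tet3* (ENSMUSG00000034832), and the methyl-CpG binding protein *Mbd2* (ENSMUSG00000024513). They were chosen by symbol, and all 9 were found among the 55487 genes of the deposited table, of which 23630 had at least 1 count. All 9 were among the 13581 genes that passed the filter on low counts, with *Tet1* and *Dnmt3b* lowest, under 3 CPM (counts scaled by library size) in every library.

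Messenger RNA was measured by 3′ tag sequencing in im-TEC, a conditionally immortalized line of mouse kidney tubular epithelial cells. In all 4 groups the cells had been kept at 33 °C with IFNgamma, which was then withdrawn for 7 days at 37 °C to turn down the SV40 large T antigen they carry. For 48 h the cells had no agent (control), 10 ng/mL of TGFβ, 50 µM of 5-amino-1-methylquinolinium, an inhibitor of NNMT, or both agents (the combined group), with 3 libraries in each group. TGFβ is a cytokine that drives fibrotic responses in tubular cells, and NNMT, nicotinamide N-methyltransferase, spends S-adenosylmethionine, the methyl donor that DNA methyltransferases also use. SV40 large T antigen, which every group carried, binds the retinoblastoma protein that holds back E2F factors. Whether replicates were separate cultures is not given in the labels, and each p-value reflects the spread among the libraries alone, which may be technical.

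Cytosine methylation at CpG sites is copied after DNA replication by *Dnmt1*, which *Uhrf1* brings to the hemimethylated sites behind the replication fork. *Dnmt3a* and *Dnmt3b* set methylation at new sites. The TET enzymes oxidise the methyl group with oxygen, iron and 2-oxoglutarate, which starts its removal, and *Mbd2* binds methylated CpG sites and recruits the NuRD repressor complex. *Dnmt1* and *Uhrf1* are known to be transcribed mostly in dividing cells, in part through E2F.

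The promoters of the 7 genes that passed the test in at least 1 comparison are shown so that the E2F motif and the CpG content of these genes can be seen. Each is the RefSeq window from 250 bases before to 50 after the start, in GRCm38.p6, written 5′ to 3′ on the strand of the gene. *Dnmt1* and *Dnmt3a* have 3 such windows each and *Uhrf1* has 2. The one with the most CpG sites is shown, a choice made after the windows were seen. Capitals mark a match to the E2F motifs searched, TTTCCCGC, TTTGGCGC, TTTCGCGC or TTTGCCGC on either strand. The remaining windows of *Dnmt1*, *Dnmt3a* and *Uhrf1* held no such match. *Dnmt1* and the UHRF genes come first, with *Dnmt1* at chr9:20952574-20952873 on the minus strand, *Uhrf1* at chr17:56304063-56304362 on the plus strand and *Uhrf2* at chr19:30030263-30030562 on the plus strand.
Dnmt1: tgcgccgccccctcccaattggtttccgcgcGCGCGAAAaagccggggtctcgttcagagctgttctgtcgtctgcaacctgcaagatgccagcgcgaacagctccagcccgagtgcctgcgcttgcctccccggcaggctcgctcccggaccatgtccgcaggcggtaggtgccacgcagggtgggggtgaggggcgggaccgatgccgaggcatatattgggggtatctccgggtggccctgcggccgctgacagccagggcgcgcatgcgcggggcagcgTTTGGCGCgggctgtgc
Uhrf1: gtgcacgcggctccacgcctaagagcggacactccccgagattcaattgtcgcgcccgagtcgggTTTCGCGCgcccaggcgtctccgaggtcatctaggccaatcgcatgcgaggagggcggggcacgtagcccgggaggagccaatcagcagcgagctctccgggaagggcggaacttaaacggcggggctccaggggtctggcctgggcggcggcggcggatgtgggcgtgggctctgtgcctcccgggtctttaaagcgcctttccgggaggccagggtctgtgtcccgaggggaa
Uhrf2: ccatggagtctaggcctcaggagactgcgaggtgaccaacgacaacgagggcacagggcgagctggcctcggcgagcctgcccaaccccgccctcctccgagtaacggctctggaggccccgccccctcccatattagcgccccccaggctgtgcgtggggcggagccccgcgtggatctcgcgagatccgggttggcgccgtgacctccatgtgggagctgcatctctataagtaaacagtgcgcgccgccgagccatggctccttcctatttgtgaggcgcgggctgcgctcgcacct

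The de novo methyltransferase *Dnmt3a* lies at chr12:3806910-3807209 on the plus strand. The TET windows are all on the minus strand, *Tet1* at chr10:62887275-62887574, *Tet2* at chr3:133544341-133544640 and *Tet3* at chr6:83441629-83441928.
Dnmt3a: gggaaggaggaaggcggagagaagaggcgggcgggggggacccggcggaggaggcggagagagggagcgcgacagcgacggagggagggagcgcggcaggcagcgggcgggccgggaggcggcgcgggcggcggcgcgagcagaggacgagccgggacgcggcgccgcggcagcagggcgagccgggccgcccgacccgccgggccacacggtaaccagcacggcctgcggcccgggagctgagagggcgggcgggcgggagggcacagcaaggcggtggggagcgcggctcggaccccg
Tet1: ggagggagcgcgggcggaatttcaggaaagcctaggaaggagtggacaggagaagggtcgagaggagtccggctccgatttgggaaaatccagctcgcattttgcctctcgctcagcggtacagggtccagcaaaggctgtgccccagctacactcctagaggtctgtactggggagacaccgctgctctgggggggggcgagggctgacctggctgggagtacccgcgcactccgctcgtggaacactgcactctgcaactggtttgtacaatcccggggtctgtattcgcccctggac
Tet2: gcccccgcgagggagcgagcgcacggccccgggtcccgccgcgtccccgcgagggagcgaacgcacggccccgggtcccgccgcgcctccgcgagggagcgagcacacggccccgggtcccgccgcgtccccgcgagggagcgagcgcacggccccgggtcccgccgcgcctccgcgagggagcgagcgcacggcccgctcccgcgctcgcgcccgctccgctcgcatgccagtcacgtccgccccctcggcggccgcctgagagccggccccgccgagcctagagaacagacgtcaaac
Tet3: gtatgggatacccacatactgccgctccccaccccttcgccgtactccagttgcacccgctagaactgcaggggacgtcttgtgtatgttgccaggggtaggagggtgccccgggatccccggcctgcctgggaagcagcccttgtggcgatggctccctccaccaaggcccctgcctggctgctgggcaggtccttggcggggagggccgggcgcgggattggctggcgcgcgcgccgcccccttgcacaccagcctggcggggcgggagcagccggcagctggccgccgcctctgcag

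The *Uhrf1* window held 1 E2F match, TTTCGCGC, at positions -185 to -178 from the start. The *Dnmt1* window held 2, GCGCGAAA at -219 to -212 and TTTGGCGC at 34 to 41, position 1 being the RefSeq start of that window. It is 1 of 3 *Dnmt1* windows, and which start these cells used was not measured. The other 5 windows held none of these letters. Of 32851 RefSeq windows of the same length, 2.26% held an E2F match. CpG sites numbered 33 in *Dnmt1*, 33 in *Uhrf1*, 28 in *Uhrf2*, 47 in *Dnmt3a*, 17 in *Tet1*, 57 in *Tet2* and 22 in *Tet3*, against a median of 7 over all windows. The letters GGGCGG, read by Sp1, occurred in all 7 windows and in 35.7% of all windows. The letters CCAAT were in those of *Dnmt1*, *Uhrf1* and *Tet3* and in 37.4% of all. CAGACA, a SMAD motif, and TTTGAA, a cell cycle motif, were in none of the 7 and in 21.0% and 17.9% of all. All motifs were read on both strands, and an Sp1 match can share bases with the E2F form TTTCCCGC. None of these matches was measured here as a bound site.

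Counts assigned to genes ranged from 2584117 to 11866903 per library, and 3 counts in a single library corresponded to 0.253 to 1.16 CPM. Replicates varied most with TGFβ, with a biological coefficient of variation of 0.227. It was 0.0657 for the controls, 0.0885 for the inhibitor and 0.111 for both agents. TGFβ replicate 3 was the shallowest library. TGFβ replicate 2 stood apart over all genes, with a chi-square over its degrees of freedom of 44.4 and 34.4 against the other TGFβ libraries, which gave 6.69 between themselves. Calls that changed without either library are given with and without it. Of 16 tubular markers 10 were tested. *Pax8*, *Pax2*, *Cdh16* and *Lrp2* were present in every group, while *Epcam* and *Slc34a1* had 0 counts and *Cdh1* 9 counts in all. With TGFβ 3 of the 10 rose and 4 fell (70% called, against 36.5% of all genes). The water channel *Aqp1* fell from 1012.5 ± 46.9 to 25.2 ± 8.55 CPM (edgeR adjusted p 2.72e-09). *Cdh16*, *Pax2* and *Lrp2* fell 2.77-fold, 2.01-fold and 1.31-fold (adjusted p 1.11e-08, 0.000506 and 0.00192). *Cdh6*, a cadherin, rose from 926 ± 10.6 to 1728 ± 173 CPM (adjusted p 6.56e-07) and *Krt8*, a keratin, from 62.6 ± 0.486 to 288 ± 99.6 CPM (adjusted p 1.41e-07). *Krt18*, another keratin, rose from 0.702 ± 0.745 to 3.75 ± 1.04 CPM (adjusted p 0.00508). Of 5 endothelial markers none was tested, *Cdh5*, *Kdr* and *Emcn* being at 0. Of 6 immune markers only *Cd68* was tested, with *Adgre1* and *Tyrobp* at 0, and of 4 podocyte markers *Wt1* and *Podxl*, with *Nphs1* at 0. The 6 fibroblast markers summed to 3.63 to 7.37 CPM in control, 149 to 187 in TGFβ, 3.19 to 5.21 in inhibitor and 35.4 to 46.6 in combined libraries. Of these, *Col1a1* and *Pdgfrb* carried the sum, and *Pdgfra*, *Lum* and *Thy1* were at 0 in every library. Summed tubular markers were 2815 to 2958 CPM in control, 2384 to 2738 in TGFβ, 3079 to 3265 in inhibitor and 2235 to 2425 in combined libraries, sums in which the fall of *Aqp1* and the rise of *Cdh6* partly offset each other. These sums moved along the same groups as several of the 9 genes, and their part in the results was not tested. In these bulk libraries, fewer cells of a type and less RNA per cell cannot be told apart.

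With TGFβ, the maintenance cofactor *Uhrf1* rose and the demethylation enzymes *Tet2* and *Tet3* fell. *Uhrf2* also rose, a call lost without control replicate 2 and with only those groups fitted. *Uhrf1* fell with the inhibitor alone, a call lost after thinning to equal depth, with no filter, and without control replicate 1 or 2 or any 1 inhibitor library. In TGFβ-treated cells the inhibitor lowered *Uhrf1* and raised *Tet3*. *Dnmt3a* was also called higher there, but not with only those groups fitted or after thinning. *Tet1* was called lower there on 0 against 14 counts, and not without TGFβ replicate 1 or any 1 combined library. With TGFβ, 4 of the 9 genes were called, against 36.5% of all genes tested (2 up, against 19.4%, and 2 down, against 17.1%), so the share was near that of all genes. With the inhibitor alone 1 was called, down, against 8.27% of all genes in either direction (2.47% up and 5.8% down). In the combined group against TGFβ, 4 were called against 10.4% of all genes (2 up, against 3.45%, and 2 down, against 6.97%). In the combined group against the inhibitor 4 were called, against 36.3%, of which 1 was up, against 18%, and 3 down, against 18.3%. The down calls of both combined comparisons include *Tet1*, at 0 counts in the combined group. It passed the filter on low counts through control and inhibitor libraries, so its fall against the inhibitor was favoured by the filter. Calls are edgeR quasi-likelihood tests at a Benjamini-Hochberg adjusted p below 0.05 over all 13581 genes. Changes are log2 fold changes ± SE, and the comparisons with control share the control libraries.

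**Figure D1:**
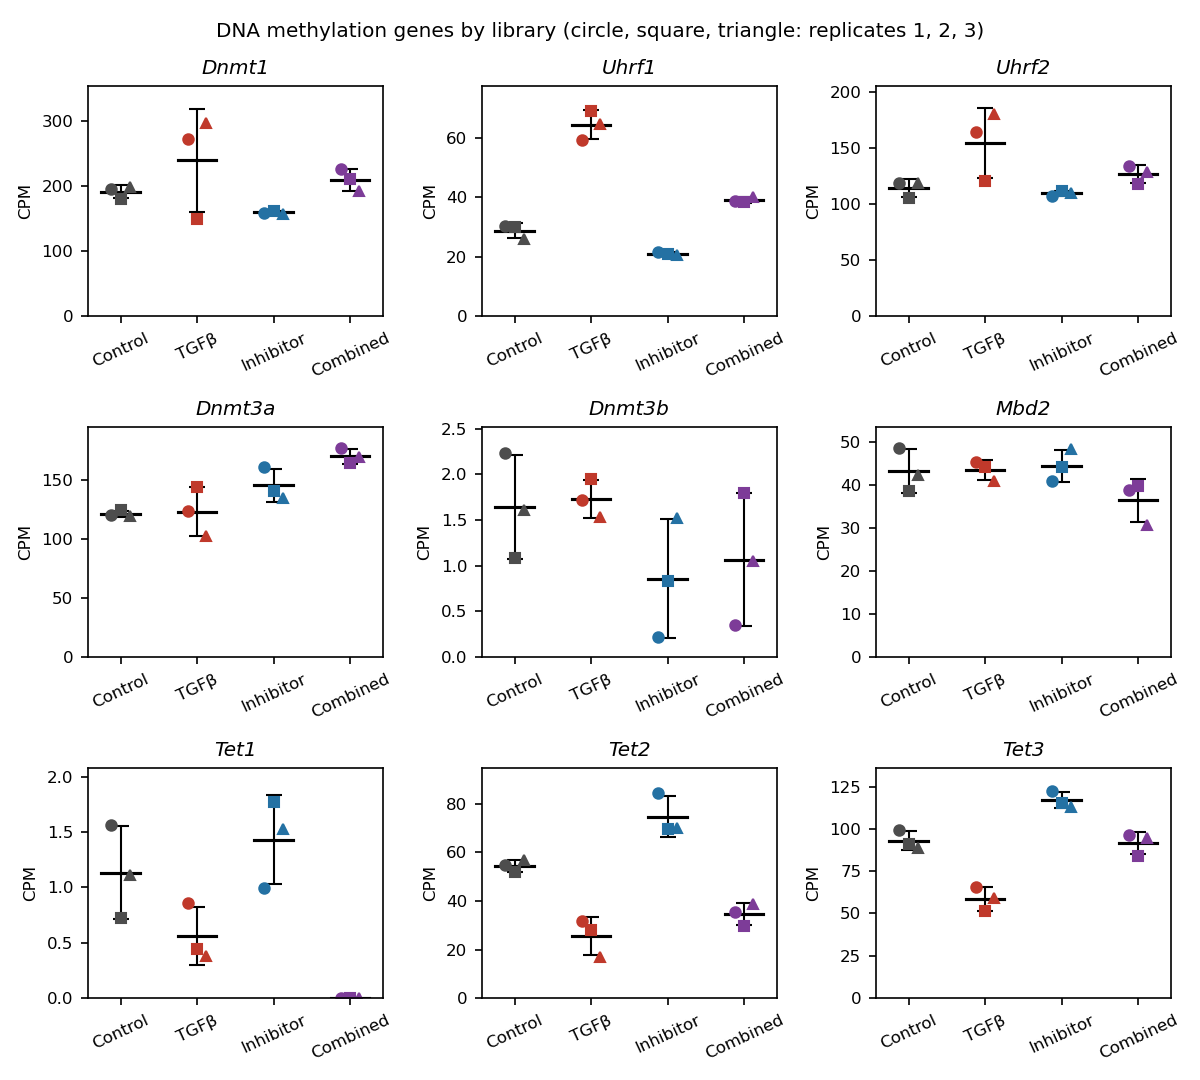
Level of each of the 9 genes in CPM (vertical axes, from 0) in the 4 groups. Points are single libraries (circle, square and triangle for replicates 1, 2 and 3), and bars give the mean ± SD of 3. *Uhrf1* is highest with TGFβ (64.5 CPM on average) and lowest with the inhibitor (21.0), *Tet2* and *Tet3* are lowest with TGFβ, and *Tet1* is at 0 in the combined group.

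*Uhrf1*, which recruits *Dnmt1* to newly replicated DNA, was at 30.2, 30.1 and 25.9 CPM in the 3 controls and at 59.5, 69.2 and 64.7 CPM with TGFβ. It was at 21.6, 20.8 and 20.7 CPM with the inhibitor and at 38.8, 38.3 and 40.1 CPM in the combined group. No library of any group lay within the range of another group, in the order TGFβ, combined, control, inhibitor. TGFβ raised it 2.24-fold (1.17 ± 0.12, edgeR adjusted p 2.88e-07), the largest rise among the 9 genes. In TGFβ-treated cells the inhibitor lowered it 1.65-fold (-0.72 ± 0.11, adjusted p 0.000467), and it stayed 1.36-fold above the controls (0.44 ± 0.12, adjusted p 0.00641). TGFβ given with the inhibitor raised it 1.86-fold over the inhibitor alone (0.89 ± 0.12, adjusted p 8.44e-06). The inhibitor alone lowered it 1.36-fold (-0.45 ± 0.12, adjusted p 0.0249). That last call was lost without control replicate 1 or 2 or any 1 inhibitor library (adjusted p 0.0517 to 0.11), with no filter (0.0506) and after thinning every library to the shallowest (-0.25, adjusted p 0.45). The inhibitor effects with and without TGFβ were not called different (interaction -0.27 ± 0.17, adjusted p 0.609).

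*Uhrf2*, a relative of *Uhrf1* with the same domain layout that also binds 5-hydroxymethylcytosine, changed less. Its control libraries were at 119, 105 and 119 CPM and its TGFβ libraries at 164, 120 and 180 CPM, replicate 2 lying just above the highest control. The inhibitor libraries were at 107, 111 and 110 CPM and the combined libraries at 133, 118 and 128 CPM, the latter overlapping the controls and the TGFβ libraries. TGFβ raised it 1.34-fold (0.43 ± 0.12, adjusted p 0.0108). Without TGFβ replicate 2 the adjusted p was 1.37e-05, the rise being 0.57, while without control replicate 2 it was 0.0615 and with only those groups fitted 0.0671. The inhibitor alone gave -0.06 ± 0.12 (adjusted p 0.838). In TGFβ-treated cells it gave -0.28 ± 0.12 (adjusted p 0.162), which was called only without TGFβ replicate 2 (-0.43, adjusted p 0.00228) or with quality weights (-0.36, adjusted p 0.01), and was -0.16 without TGFβ replicate 3 (adjusted p 0.379). The combined group against the inhibitor gave 0.21 ± 0.12 (adjusted p 0.195), called without TGFβ replicate 2 (0.22, adjusted p 0.0278) or with quality weights (0.22, adjusted p 0.041).

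*Dnmt1*, the maintenance methyltransferase, was at 196, 181 and 199 CPM in the controls and at 273, 149 and 298 CPM with TGFβ. Replicates 1 and 3 lay above every control and replicate 2 below every library of the experiment. The inhibitor libraries were at 159, 162 and 158 CPM, all below the controls, and the combined libraries at 226, 212 and 193 CPM, overlapping them. The change with TGFβ was not called (0.31 ± 0.18, adjusted p 0.205), and without replicate 2 it was 0.56 with an adjusted p of 5.94e-06, whereas without replicate 3 it was 0.14 (adjusted p 0.582). It was called on all libraries with quality weights (0.49, adjusted p 8.95e-05) and with no filter (0.29, adjusted p 0.0496). The inhibitor alone gave -0.26 ± 0.18 (adjusted p 0.458), and this difference was called when TGFβ replicate 2 was left out (-0.28, adjusted p 0.0111) and when only these groups were fitted (-0.27, adjusted p 0.002). Quality weights called it too (-0.25, adjusted p 0.0338). In the combined group *Dnmt1* differed from TGFβ by -0.18 ± 0.18 (adjusted p 0.587), or by -0.43 without TGFβ replicate 2 (adjusted p 0.00105) and -0.36 with quality weights (adjusted p 0.0178). It differed from the inhibitor alone by 0.40 ± 0.18 (adjusted p 0.109), with no overlap of libraries, and without TGFβ replicate 2 by 0.41 (adjusted p 6.8e-05). That difference was also called with only those groups fitted (0.39, adjusted p 0.000259), with no filter (0.40, adjusted p 0.00308) and with quality weights (0.38, adjusted p 0.00156). In order the group means were 240 with TGFβ, 210 combined, 192 in the controls and 160 CPM with the inhibitor. In the main fit no neighbours in that order were called different, while the first and last were (0.58 ± 0.18, adjusted p 0.0198). That call was lost with only those groups fitted (adjusted p 0.0651) and without TGFβ replicate 1 or 3 or any 1 inhibitor library (0.0699 to 0.088).

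The change of both maintenance genes was set beside 40 genes of DNA replication, the process whose product they serve. With TGFβ 38 of these 40 rose (95%, against 19.4% of all genes) and 0 fell, with a median of 0.87 against 0.02 for all genes. Among them *Mcm3*, a subunit of the replicative helicase, changed by 1.19 (adjusted p 6.13e-08), and *Cdc45*, its partner in the active helicase, by 1.61 (adjusted p 6.64e-07). With the inhibitor alone 4 fell (10%, against 5.8% of all genes) and 0 rose, with a median of -0.19 against 0.01. The 4 included *Tk1*, the thymidine kinase of the S phase, at -0.85 (adjusted p 0.00114), and *Rrm1*, the large subunit of ribonucleotide reductase, at -0.51 (adjusted p 0.000865). In the combined group 19 were lower than with TGFβ (47.5%, against 6.97%) and 0 higher, with a median of -0.50 against -0.02. Against the inhibitor alone 31 were higher (77.5%, against 18%) and 0 lower, with a median of 0.56 against 0.00.

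Relative to the mean log2 level of these 40 genes, *Uhrf1* and *Dnmt1* differed. With TGFβ, *Uhrf1* changed by 1.16 on the log2 CPM scale while the list mean changed by 0.90, so that *Uhrf1* gained 0.25 on it. *Dnmt1* changed by 0.26 and lost 0.64 on the list (each p 0.1, the smallest an exact two-sided permutation test of 3 against 3 can give). Its loss ranged from 0.31 to 0.83 over leaving out each library, and was smallest without TGFβ replicate 2. With the inhibitor alone *Uhrf1* lost 0.29 on the list (exact p 0.1) and *Dnmt1* 0.11 (exact p 0.2). In the combined group against TGFβ, *Uhrf1* lost 0.29 (exact p 0.1), and *Dnmt1* gained 0.29 (exact p 0.8), a value that turned to -0.04 without TGFβ replicate 2. Against the inhibitor alone, *Uhrf1* gained 0.24 and *Dnmt1* lost 0.24 (each exact p 0.1). These 8 tests were read unadjusted, and none could pass 0.05.

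**Figure D2:**
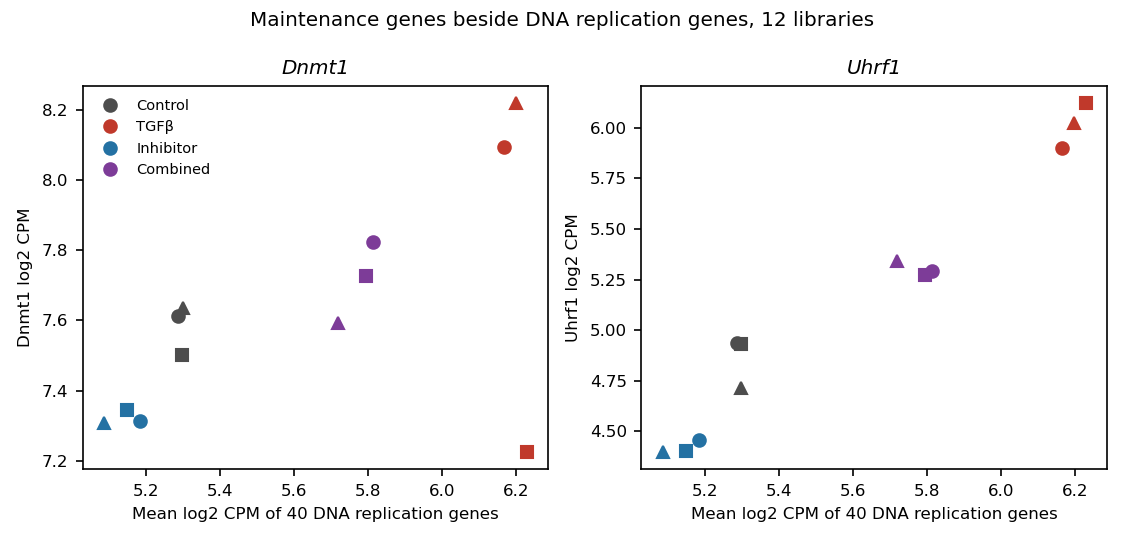
Log2 CPM of *Dnmt1* (left) and *Uhrf1* (right) against the mean log2 CPM of 40 DNA replication genes, 1 point per library, coloured by group, with circle, square and triangle for replicates 1, 2 and 3. *Uhrf1* follows the same order of groups as the list, with no overlap between groups, whereas *Dnmt1* in TGFβ replicate 2 (lower right, 7.23) lies below every other library.

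Of 16 further genes that act with the maintenance machinery, 8 rose with TGFβ (50%, against 19.4% of all genes) and 0 fell, with a median of 0.38 against 0.02. *Hells*, the chromatin remodeller needed for methylation of repeats, rose 1.85-fold (adjusted p 8.14e-07) and *Suv39h1*, an H3K9 methyltransferase, 1.93-fold (adjusted p 1.62e-05). *Pcna*, the sliding clamp that *Dnmt1* binds, rose 1.87-fold (adjusted p 0.000424), and *Lig1*, the replicative ligase that binds *Uhrf1*, 1.42-fold (adjusted p 0.00156). With the inhibitor alone 1 fell (6.25%, against 5.8%), *Hells*, by 0.32 (adjusted p 0.0445). In the combined group against TGFβ 1 was lower, *Pcna*, by -0.68 (adjusted p 0.0164), again near the share of all genes (6.25% against 6.97%, median -0.09 against -0.02). Against the inhibitor alone 9 were higher (56.2%, against 18%) and 1 lower (6.25%, against 18.3%), with a median of 0.45 against 0.00, led by *Hells* at 0.97 (adjusted p 2.17e-07).

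*Dnmt3a*, the de novo methyltransferase with the higher count here, was at 121, 125 and 120 CPM in the controls and at 124, 144 and 103 CPM with TGFβ, on both sides of the controls. The inhibitor libraries were at 162, 141 and 135 CPM, above every control, and the combined libraries at 177, 165 and 170 CPM, above all others. In TGFβ-treated cells the inhibitor raised *Dnmt3a* 1.37-fold (0.45 ± 0.11, adjusted p 0.0149), and the combined group was 1.40-fold above the controls (0.49 ± 0.11, adjusted p 0.00242). The first of these was lost when only those groups were fitted (0.48, adjusted p 0.0867) and when libraries were thinned (0.39, adjusted p 0.0937). It was 0.58 without TGFβ replicate 2 (adjusted p 0.0002) and 0.35 without TGFβ replicate 3 (adjusted p 0.0319). The inhibitor alone gave 0.26 ± 0.11 (adjusted p 0.176), which was called when only those groups were fitted (adjusted p 0.00788), with quality weights (0.25, adjusted p 0.015) and without TGFβ replicate 2 (0.24, adjusted p 0.0455). TGFβ gave 0.03 ± 0.11 (adjusted p 0.851), with a sign that changed between alternatives. In order the means were 171 in the combined group, 146 with the inhibitor, 123 with TGFβ and 122 CPM in the controls. No neighbours in that order were called different in the main fit. Without TGFβ replicate 2 the combined group was called above the inhibitor (0.24, adjusted p 0.0206) and TGFβ below it (-0.34, adjusted p 0.0054). With quality weights both were called as well (0.24, adjusted p 0.0178, and -0.26, adjusted p 0.0146). The first was also called with only the combined and inhibitor groups fitted (0.22, adjusted p 0.0366).

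*Dnmt3b*, the second de novo enzyme, known mostly from embryonic cells, lay at 0.22 to 2.23 CPM. The 3 libraries of a group held 45 counts for control, 42 for TGFβ, 23 for inhibitor and 27 for combined treatment. It was called in none of the comparisons, and its largest change from control was -0.93 ± 0.60 with the inhibitor (adjusted p 0.406). By counts alone the control to inhibitor ratio was 1.92, with an exact 95% interval of 1.14 to 3.33 that covers counting error only. Of 13 tested genes that guide or oppose de novo methylation, 4 rose and 1 fell with TGFβ, a share near that of all genes (38.5% against 36.5%, median 0.05 against 0.02). The Polycomb subunits *Ezh2*, *Suz12* and *Eed* rose 2.09-fold, 1.62-fold and 1.32-fold (adjusted p 1.14e-06, 0.0024 and 0.00528). *Nsd1*, a histone H3K36 methyltransferase whose mark attracts *Dnmt3a*, fell 1.34-fold (adjusted p 0.00664), while *Nsd2* of the same family rose 1.26-fold (adjusted p 0.0146). No gene of that list was called with the inhibitor alone (against 8.27% of all genes) or in the combined group against TGFβ (against 10.4%). In the combined group 3 were higher than with the inhibitor (23.1%, against 18%) and 0 lower.

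*Tet2*, a TET enzyme without the CXXC DNA-binding domain of its relatives, was at 54.9, 51.8 and 56.7 CPM in the controls and at 31.8, 28.2 and 16.8 CPM with TGFβ. All 3 TGFβ libraries were below all controls, the shallow replicate 3 lowest with 44 counts. The inhibitor libraries were at 84.3, 69.6 and 70.0 CPM, above all controls, and the combined libraries at 35.4, 29.6 and 38.8 CPM, overlapping the TGFβ libraries. TGFβ lowered *Tet2* 2.04-fold (-1.03 ± 0.17, adjusted p 8.22e-05), and by -0.86 to -1.19 when any 1 library was left out. In cells with the inhibitor TGFβ lowered it 2.16-fold (-1.11 ± 0.16, adjusted p 2.18e-05). The inhibitor in TGFβ-treated cells gave 0.37 ± 0.17 (adjusted p 0.176), or 0.21 without TGFβ replicate 3 (adjusted p 0.338), and the combined group stayed 1.58-fold below the controls (-0.66 ± 0.16, adjusted p 0.00384). The inhibitor alone gave 0.45 ± 0.16 (adjusted p 0.0844). That value was called when only these groups were fitted (0.45, adjusted p 0.00032), with quality weights (adjusted p 0.00194), and without TGFβ replicate 2 or 3 (adjusted p 0.0256 and 0.0181). From highest to lowest the groups ran inhibitor (74.6 CPM), control (54.5), combined (34.6) and TGFβ (25.6), and only control and combined were called different among neighbours.

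*Tet3*, the TET enzyme with the highest count here, was at 99.5, 90.9 and 88.6 CPM in the controls and at 65.5, 51.4 and 59.3 CPM with TGFβ. The inhibitor libraries were at 122, 115 and 113 CPM and the combined libraries at 96.2, 83.9 and 94.6 CPM. TGFβ libraries were below and inhibitor libraries above all others, while the combined libraries overlapped the controls, replicate 2 lying below every control. TGFβ lowered *Tet3* 1.59-fold (-0.67 ± 0.11, adjusted p 0.000105), and in TGFβ-treated cells the inhibitor raised it 1.56-fold (0.64 ± 0.11, adjusted p 0.000955). The combined group differed from the controls by -0.02 ± 0.11 (adjusted p 0.893). With the inhibitor present, TGFβ lowered *Tet3* 1.28-fold (-0.35 ± 0.11, adjusted p 0.014), a call lost without inhibitor replicate 1 (adjusted p 0.0761), without combined replicate 2 (adjusted p 0.0898) and after thinning (adjusted p 0.0965). The inhibitor alone gave 0.33 ± 0.11 (adjusted p 0.0648), with all 3 libraries above the controls. It was called when only those groups were fitted (adjusted p 0.00123) and when any 1 of the TGFβ libraries was left out (adjusted p 0.0113 to 0.0479). The difference between the effects of the inhibitor with and without TGFβ was 0.31 ± 0.15 (adjusted p 0.492), which was not called. The *Tet3* gene overlaps 5430434F05Rik on the same strand, to which 231 counts were assigned in all. Reads that lie where both genes overlap cannot be told apart by position alone.

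*Tet1*, the TET enzyme best known from embryonic stem cells, was near the limit of counting. The controls held 14, 6 and 11 counts, the TGFβ libraries 8, 5 and 1, the inhibitor libraries 9, 15 and 14, and the combined libraries 0, 0 and 0. The TGFβ libraries were at 0.862, 0.443 and 0.383 CPM, and the gene passed the filter on low counts through control and inhibitor libraries. Set against a floor of 3 counts over the group, and with the other group's counts taken as exact, *Tet1* was at least 5.05-fold lower in the combined group than with TGFβ, at least 11.9-fold lower than with the inhibitor and at least 9.56-fold lower than in the controls. With the counting error of both groups included, exact 95% intervals of these ratios began at 3.59, 9.23 and 7.32-fold, and they cover counting error only. The edgeR adjusted p was 0.0164, 0.000208 and 0.000527. The first rose to between 0.0502 and 0.0543 without TGFβ replicate 1 or without any 1 combined library. In these comparisons *Tet1* was not tested under a stricter filter, after thinning or with only the groups compared fitted. The *Tet1* gene overlaps Gm48353 on the same strand, to which 11 counts were assigned in all. Neither agent alone gave a called change (TGFβ -0.91 ± 0.61, adjusted p 0.266, and inhibitor 0.32 ± 0.52, adjusted p 0.793).

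**Figure D3:**
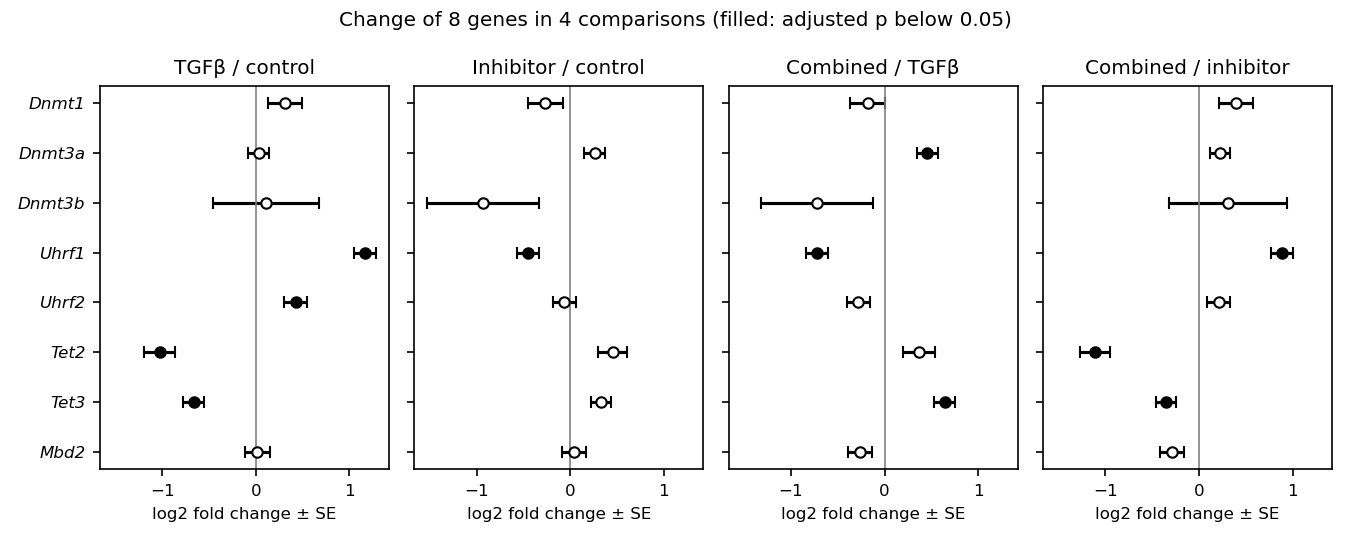
Log2 fold change ± SE (horizontal axis) of 8 genes in 4 comparisons, with filled points where the adjusted p was below 0.05. *Tet1* is left out because its combined libraries were at 0. *Uhrf1* is called in all 4 panels, up with TGFβ and down with the inhibitor, and *Tet3* in 3, down with TGFβ and up when the inhibitor was added to it.

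None of the 9 genes was called in the interaction, the test of whether the inhibitor acted differently with and without TGFβ, against 1.11% of all genes (0.641% up and 0.471% down). In edgeR 1 gene, *Tet1*, had an unadjusted p under 0.05 (0.00117, adjusted p 0.0806), DESeq2 called 0, and quality weights called *Tet1* (adjusted p 0.0114), as did leaving out TGFβ replicate 2 (adjusted p 0.0466). Of the comparisons across both agents, the combined group against control called 4 of the 9 against 31.8% of all genes, 2 up against 15.3% and 2 down against 16.5%. The down calls include *Tet1*, whose fall was favoured by the filter, which it passed through control and inhibitor libraries. TGFβ against the inhibitor called 5 against 45.9%, 3 up against 24% and 2 down against 21.8%.

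Of 20 tested partners of the TET enzymes and of base excision, 5 rose and 8 fell with TGFβ (65% called, against 36.5% of all genes, with a median of -0.31 against 0.02). *Gadd45g* and *Gadd45b*, stress proteins tied to active demethylation, were 4.79-fold and 4.35-fold higher (adjusted p 6.4e-11 and 6.24e-05). *Gadd45a* fell 1.80-fold (adjusted p 4.24e-05). *Idh2*, the mitochondrial isocitrate dehydrogenase that makes 2-oxoglutarate, fell 2.21-fold (adjusted p 1.02e-07), *Sdha*, which oxidises the TET inhibitor succinate, 1.55-fold (adjusted p 5.5e-05), and *Idh3a*, a subunit of the citric acid cycle dehydrogenase, 1.69-fold (adjusted p 0.000226). With the inhibitor alone 2 rose and 1 fell (15%, against 8.27%): *Gadd45a* by 0.64 (adjusted p 0.00221), *Cxxc5*, a CXXC protein related to a partner of *Tet2*, by 0.37 (adjusted p 0.0283), and *Idh3a* by -0.45 (adjusted p 0.0423). In the combined group against TGFβ 1 was higher and 1 lower, a share near that of all genes (10% against 10.4%). In these TGFβ-treated cells the inhibitor raised *Gadd45a* 2.57-fold, from 39.9 ± 7.32 to 101 ± 11.3 CPM (adjusted p 2.2e-06), and lowered *Pold1*, a DNA polymerase subunit, by 0.54 (adjusted p 0.0379). Against the inhibitor alone, the combined group had 3 higher (15%, against 18% of all genes) and 7 lower (35%, against 18.3%). *Gadd45g* was again first (2.31, adjusted p 2.93e-11).

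*Mbd2* lay at 30.6 to 48.7 CPM in all 12 libraries, with means of 43.3, 43.5, 44.5 and 36.4 CPM in the control, TGFβ, inhibitor and combined groups. It was not called in any comparison, the nearest being the combined group against the inhibitor (-0.29 ± 0.13, adjusted p 0.0964). That difference was called with quality weights (-0.31, adjusted p 0.036), and the combined group was called lower than the controls with library size as the scale (-0.36, adjusted p 0.0396). Of 14 other genes that read methylated DNA or belong to NuRD, 3 rose and 2 fell with TGFβ, a share near that of all genes (35.7% against 36.5%, median -0.06 against 0.02). *Zbtb38*, a zinc-finger protein that binds methylated CpG, had 135 ± 3.45 CPM in the controls and 312 ± 34.4 CPM with TGFβ, a 2.32-fold rise (adjusted p 1.58e-08). It fell 1.48-fold with the inhibitor alone (adjusted p 0.000997), to 90.9 ± 3.19 CPM, and 1.63-fold when the inhibitor was added to TGFβ (adjusted p 0.000121). It was the single reader called with the inhibitor alone (7.14% of 14, against 8.27%). *Zbtb4*, another methyl-CpG binding zinc-finger protein, fell 1.39-fold with TGFβ (adjusted p 0.00493) and was 1.43-fold lower in the combined group than with TGFβ (adjusted p 0.0134).

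The supply of methyl groups was read from 15 tested genes. With TGFβ 3 rose and 2 fell, a share near that of all genes (33.3% against 36.5%, median 0.12 against 0.02). In inhibitor libraries 1 was higher and 2 were lower than in the controls (20% against 8.27%, median -0.21 against 0.01). *Inmt*, which like NNMT methylates small amines from S-adenosylmethionine, fell from 53.2 ± 6.48 CPM in the controls to 0 counts in all 3 TGFβ libraries (adjusted p 6.84e-11), and was at 15.1 ± 1.8 CPM with the inhibitor alone (-1.81 ± 0.17, adjusted p 9.04e-06) and at 0 in the combined group. *Ahcy*, which removes the product S-adenosylhomocysteine, rose 2.55-fold with TGFβ at a low level, from 2.76 ± 0.561 to 7.01 ± 2.23 CPM (adjusted p 0.00221). *Ahcyl2*, a relative of *Ahcy*, fell 2.29-fold with TGFβ (adjusted p 4.6e-07) and rose 1.43-fold with the inhibitor (adjusted p 0.00767). *Shmt2*, the mitochondrial serine hydroxymethyltransferase, fell 1.34-fold with the inhibitor (adjusted p 0.0145). None of the 15 was called in the combined group against TGFβ (0% against 10.4% of all genes, median -0.12 against -0.02). Against the inhibitor 4 were higher (26.7%, against 18%) and 4 lower (26.7%, against 18.3%). Of 12 other nucleic acid methyltransferases that use the same donor, 1 rose with TGFβ, the RNA enzyme *Nop2* (1.38-fold, adjusted p 0.00113). Another, *Pcif1*, fell (1.32-fold, adjusted p 0.0239), together 16.7% against 36.5% of all genes. With the inhibitor alone 0 of the 12 were called, against 8.27% of all genes.

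Most genes of a list chosen as silenced by promoter DNA methylation in somatic mouse cells stayed near 0, while the imprinted *H19* rose with TGFβ. Of the 27 listed genes, 13 had 0 counts over all 12 libraries and 21 had 10 or fewer. Only 4 were tested, *H19*, *Brdt*, *Nanog* and *Rhox5*. *H19*, an imprinted noncoding RNA, had 21 counts over the control, 419 over the TGFβ, 9 over the inhibitor and 199 over the combined libraries. It rose with TGFβ (4.44 ± 0.51, adjusted p 4.64e-06) and with TGFβ in the presence of the inhibitor (4.50 ± 0.60, adjusted p 2.31e-05). In both comparisons it was the only 1 of the 4 called, 25% against 19.4% and 18% of all genes called up. None of the 4 was called with the inhibitor alone (against 8.27% of all genes) or in the combined group against TGFβ (against 10.4%). DNA methylation itself was not measured in this series.

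Within each family, shares of the summed counts show how the genes moved against each other, free of library scaling. These are shares of 3′ tags and are not corrected for gene length. *Dnmt1* held 60.8 ± 1.62% of the counts of the 3 DNA methyltransferases in control, 64.4 ± 12.3% in TGFβ, 52.2 ± 2.30% in inhibitor and 55.0 ± 1.74% in combined libraries. The inhibitor and combined libraries all lay below the controls, and the TGFβ libraries ran from 50.5 to 74.1%. *Tet2* held 36.7 ± 1.84% of the TET counts in control, 29.9 ± 6.96% in TGFβ, 38.6 ± 1.78% in inhibitor and 27.4 ± 1.58% in combined libraries. It was 11.2 points lower in the combined group than with the inhibitor, with no overlap. *Uhrf1* held 20.2 ± 2.19% of the UHRF counts in control, 29.9 ± 5.82% in TGFβ, 16.1 ± 0.528% in inhibitor and 23.6 ± 1.03% in combined libraries, with no overlap in the 4 main comparisons. Of 28 exact two-sided permutation tests of such shares, the smallest p was 0.1, the least that 3 against 3 allows, and the smallest Benjamini-Hochberg adjusted p was 0.255.

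**Figure D4:**
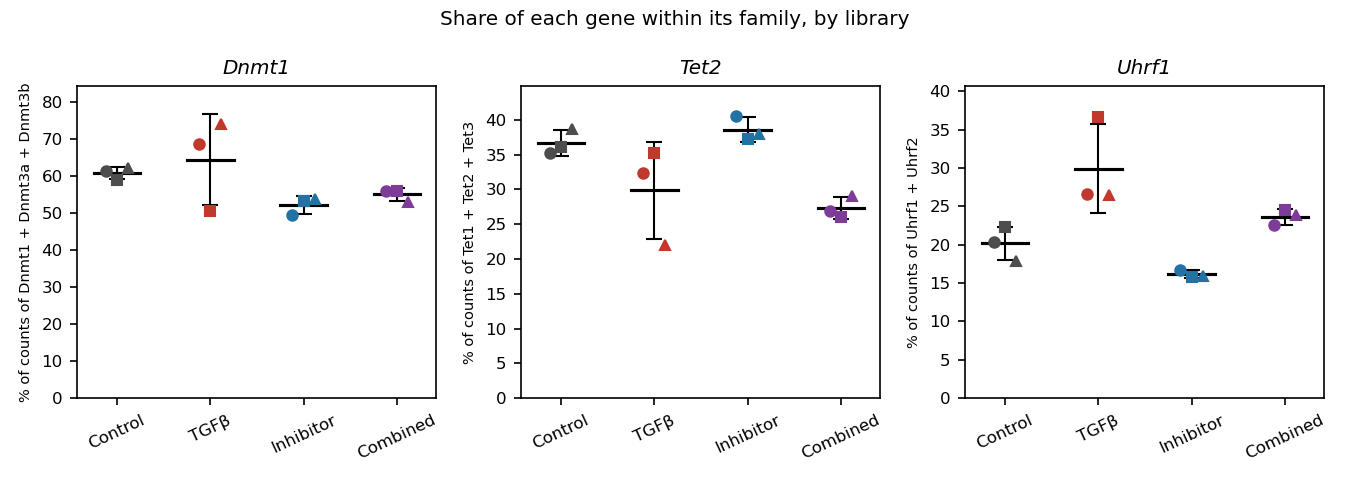
Share of *Dnmt1* among the DNA methyltransferase counts, of *Tet2* among the TET counts and of *Uhrf1* among the UHRF counts, in percent (vertical axes, from 0), with 1 point per library and the mean ± SD of 3. *Uhrf1* takes more of its family with TGFβ (29.9% on average against 20.2% in the controls), and the *Dnmt1* share spans 50.5 to 74.1% between TGFβ libraries.

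Across the 12 libraries, *Uhrf1* log2 CPM had a Pearson r of -0.92 with *Tet2* and of -0.93 with *Tet3*, and *Tet2* and *Tet3* one of 0.85. *Dnmt1* had 0.89 with *Uhrf2* and 0.57 with *Uhrf1*. These describe 12 libraries in 4 treatment groups, which are not independent points. Among tested genes with a mean of 10 CPM or more, those most like *Uhrf1* were *Ifi204* (r 0.993), *Zbtb38* (0.990) and *Ifih1* (0.987), and those most like *Tet2* were *Tob1* (0.988), *Metap1d* (0.984) and *Pigyl* (0.981). *Tsc22d3* and *Stxbp3* (each 0.982) came nearest to *Tet3*, *Psma2* (0.961) to *Dnmt1*, *Ctnnd1* (0.940) to *Uhrf2*, *Nt5dc3* (0.939) to *Dnmt3a* and *Sox9* (0.953) to *Tet1*. *Dnmt3b* and *Mbd2* had no gene above 0.828 and 0.819.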

How the data were processed

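Raw counts of reads per gene were deposited by the authors as a single table with 1 column per library, and no column belonged to another series (0). The submitters' processing notes name STAR, HTSeq and GRCh38, a human build, although the identifiers are mouse Ensembl genes, so no gene position is taken from the table. Versions and the strand setting are not given in the sources used here. Libraries were QuantSeq 3′ FWD per the labels' protocols, so counts do not scale with gene length. Rows that name no gene stayed out of all totals (reads outside annotated genes were 21.1 to 26.8% of the counts and ambiguous ones 0.613 to 0.802%).

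Genes were filtered with filterByExpr (13581 of 55487 left), scaled by TMM and fitted with edgeR 4.0.16 (R 4.3.3, limma 3.58.1) as 1 model with a mean for each of 4 groups. Tests were quasi-likelihood F-tests with robust settings, adjusted by Benjamini-Hochberg over all genes and called below 0.05. CPM was computed on library sizes scaled by TMM, with a prior count of 3 for log2 values. Symbols came from GENCODE and 55141 identifiers had one. Alternatives were DESeq2 1.42.0, limma voom with quality weights, other scalings and filters, fitting only the groups compared, a replicate block, thinning every library to 2584117 counts, leaving out mitochondrial genes and Malat1, and leaving out each library. Every pair of replicates differed beyond sampling noise (chi-square over its degrees of freedom 3.3 to 44.4), so none was a duplicate.

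The 9 genes and the gene lists were chosen with earlier results of these data known. Named were the 9 genes, up to 4 called genes of smallest adjusted p per list and comparison, genes at 0 in the list of silenced genes, and up to 3 genes of highest r per member. *Pax2*, *Lrp2*, *Krt18*, *Nsd2*, *Gadd45b* and *Idh3a* under TGFβ, and *Brdt*, *Nanog* and *Rhox5*, fall outside that rule and were named after their values were seen. On simulated data 27.3, 68.6 and 86.2% of 1.5, 2 and 4-fold changes were recovered for TGFβ with control (13289 genes, 10 false among 126 calls), and 24.2, 74.3 and 91.4% for the inhibitor with control (13292 genes, 5 false among 126). The simulation gave all groups the same spread per gene. The measured coefficient of variation was 0.227 with TGFβ and 0.0657 in the controls, so these shares hold for an equal spread only. Results for some marker genes are not reported here.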

Additional observations from a re-analysis of the deposited data

How the results depend on the processing

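Of 22 called results of single genes, 16 kept their call in every alternative in which they were tested. Over 475 alternative values 451 kept direction and call, 24 lost the call and 0 reversed. In its called comparisons *Tet1* was not tested under a stricter filter, after thinning or with only the groups compared fitted. The *Tet1* calls of the combined group against the inhibitor and against control are among the 16 and had no value there. Both falls were favoured by the filter on low counts, which *Tet1* passed through control and inhibitor libraries. That these calls were kept is therefore no support for them. The 1 gene called for the inhibitor with control became 5 when only those groups were fitted, 5 with quality weights, 2 with a replicate block, 0 after thinning and 0 to 5 when 1 library was left out (5 without TGFβ replicate 2). The 4 called in the combined group against TGFβ became 2 when only those groups were fitted and 2 after thinning, where *Tet1* was not tested. The 4 against the inhibitor became 8 with quality weights, 2 after thinning and 3 to 7 when 1 library was left out. The interaction went from 0 to 1 with quality weights and 0 to 1 when 1 library was left out. Over all genes, calls for the inhibitor with control went from 1123 to 648 after thinning, 2931 when only those groups were fitted, 3064 with quality weights and from 591 to 2179 without 1 library. The combined group against TGFβ went from 1416 to 818 after thinning, 408 with only those groups and 762 without combined replicate 3. The interaction went from 151 to 260 in DESeq2, 306 with no filter, 90 after thinning, 483 with quality weights and 65 to 399 without 1 library. With library size as the scale, calls were 204 up and 1036 down for the inhibitor, against 335 and 788, and 1404 up and 2899 down for the combined group with control, against 2077 and 2244. The replicate numbers did not pair the libraries: 18 same-numbered pairs had correlations of -0.0847 to 0.202, 1 of them over 0.1, and 5 of 12 libraries correlated best with their own number. The replicate block added *Tet3* with the inhibitor (0.33, adjusted p 0.0497) and changed no other count of the 9 genes by over 1.5 times.

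Values whose sign turned were never called. For *Dnmt3a* with TGFβ they were -0.058 by library size, -0.012 with quality weights, -0.017 after thinning and -0.096 to 0.14 without 1 library. For *Mbd2* with TGFβ they were -0.0048 in DESeq2, -0.0045 with DESeq2 size factors, -0.073 by library size, -0.0048 with no filter, -0.0012 with only those groups and -0.059 to 0.11 without 1 library. *Mbd2* gave -0.030 by library size and -0.044 to 0.13 without 1 library for the inhibitor, and 0.010 with a stricter filter, 0.017 with quality weights and -0.098 to 0.028 without 1 library for TGFβ alone against the inhibitor alone. *Tet3* in the combined group with control gave 0.0063 with quality weights, 0.018 after thinning and -0.065 to 0.034 without 1 library. The *Dnmt1* interaction gave -0.11 with quality weights, -0.0077 after thinning and -0.15 to 0.26 without 1 library, and that of *Tet2* 0.082 after thinning and -0.25 to 0.077 without 1 library. Without 1 library *Dnmt3b* ranged from -0.11 to 0.38 with TGFβ, from -0.31 to 1.04 in the combined group against the inhibitor and from -0.38 to 0.97 in the interaction. Shares without 1 library, in points, ranged from -1.27 to 10.5 for *Dnmt1*, -10.4 to 1.24 for *Dnmt3a*, -0.11 to 0.061 for *Dnmt3b* and -0.24 to 0.012 for *Tet1* with TGFβ. They ranged from -0.13 to 0.13 for *Tet1* with the inhibitor, -6.45 to 0.16 for *Tet2* in the combined group against TGFβ and -0.11 to 0.11 for *Dnmt3b* against the inhibitor. *Dnmt1* relative to the replication genes ranged from -0.036 to 0.48 in the combined group against TGFβ. The cause of these differences was not tested. *Tet1* and *Dnmt3b*, with the fewest counts, had SEs of 0.52 to 1.33 and 0.57 to 0.63 in the 4 main comparisons, against 0.11 to 0.18 for the other 7 genes.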
